A study of Bos grunniens with 36 samples.

Results

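The unfolded protein response was followed through a lactation cycle in the mammary gland of the yak, Bos grunniens. Its 10 genes were chosen by name, and 9 of the 10 (XBP1, ATF4, DDIT3, HSPA5, DNAJB11, DNAJB9, MANF, SYVN1 and HERPUD1) have probes under that symbol in the deposited table, out of 20110 genes and unnamed transcripts there. ATF6 has no probe under its own symbol. All 9 passed the filter on dim probes and are among the 20108 genes and transcripts tested, and each probe used was well above background on 36 of 36 arrays.

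The study sampled 4 yaks at 9 times, 30 and 15 days before parturition (days -30 and -15) and on days +1, +15, +30, +60, +120, +180 and +240 after it. All 36 samples are female mammary parenchyma from biopsies of the left and right rear udder in turn, with fat and connective tissue dissected away, and the labels name no treatment or genotype. Each sample was hybridised alone, with Cy3, to a cattle array. By the sample titles the same animal number is the same yak at each day, so n = 4 a day.

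The table and the scanner files disagree on the day of most arrays. Every column of the table equals the values of 1 scanner file, yet none of the 36 matching files carries the sample name of its column, and 27 carry another day. The values below follow the days of the table's columns. For the other 9 columns, all of animal 4, both records give the same day, and the differences of animal 4 are given for that reason. The matching files of these columns belong to other samples of the same day. The records thus agree there on the day but not on the yak. By the table's record each day was hybridised on 1 slide of 4 arrays, so that day and slide cannot be told apart. The 75th percentile of the processed signal ranged from 1029 to 6450 intensity units across arrays, and 68.6% to 89.3% of spots were well above background. Milk protein genes marked the secretory epithelium. Their list mean was between 3.47 and 8.37 on 34 arrays, but it was -0.48 and -0.59 on the day +120 and day +180 arrays of animal 4.

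Proteins made for secretion fold in the endoplasmic reticulum (ER). When unfolded proteins gather there, the sensors IRE1, PERK and ATF6 set off the unfolded protein response: IRE1 splices the mRNA of XBP1, PERK slows translation and favours that of ATF4, and cleaved ATF6 enters the nucleus. Their targets are chaperones and the machinery that returns failed proteins to the cytosol for degradation, and the secreting mammary epithelium, which exports caseins and whey proteins in bulk, depends on that folding capacity. The arrays measured total mRNA and not splicing, translation or cleavage.

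The probes are strands of 60 bases. Those shown have at least 1 reading frame without a stop codon, and they are the probes that gave the values of DDIT3, HSPA5 and HERPUD1, a second probe of XBP1 and of ATF4, and the second SYVN1 probe, which was not called. Positions are those of the array design on cattle build UMD 3.1, the listed spans of HERPUD1 and SYVN1 differ from the probe length, and exon annotation was not used here. Capitals mark the codons of the only sense frame without a stop, and a probe is in lower case throughout where more than 1 frame is open.
DDIT3, chr5:56288739-56288798, plus strand: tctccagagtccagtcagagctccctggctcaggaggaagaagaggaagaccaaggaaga
HSPA5, chr11:96115610-96115669, minus strand: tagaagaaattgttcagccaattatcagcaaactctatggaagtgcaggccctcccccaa
HERPUD1, chr18:25056535-25056591, plus strand: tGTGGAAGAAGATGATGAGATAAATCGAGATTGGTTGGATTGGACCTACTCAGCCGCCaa
XBP1, second probe, chr17:70345343-70345402, minus strand: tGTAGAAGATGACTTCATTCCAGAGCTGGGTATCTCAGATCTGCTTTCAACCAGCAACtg
ATF4, second probe, chr5:111464095-111464154, plus strand: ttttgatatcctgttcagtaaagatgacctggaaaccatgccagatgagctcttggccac
SYVN1, second probe, chr29:43999605-43999758, minus strand: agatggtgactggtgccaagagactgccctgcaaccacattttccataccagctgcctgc
An open frame is common among these probes: 85.6% of the 43653 probe sequences of the array have at least 1.

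All 9 genes were higher at day +60 than at day -30, each in 4 of 4 animals, by 0.84 to 1.91 on the log2 scale. At day +15, 6 of the 9 were higher, with ATF4 at 1.70 ± 0.43 (SE, n = 4 a day), SYVN1 at 1.52 ± 0.46 and DDIT3 at 1.29 ± 0.38. Between days -15 and -30 their differences lay between -0.34 and 0.12, and none passed. Values are log2 signals with the 75th percentile of every array set to 0, so that a difference of 1 is a doubling, and they were tested with limma, with day as fixed effect and animal as random block, and Benjamini-Hochberg adjustment over all 20108 genes. A gene was called at an adjusted p under 0.05.

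The members were called more often than the table at days +15 and +60, and not throughout. Over the 9 days 8 of 9 passed the F test, against 42.3% of all genes. Without animals 1, 2, 3 and 4 in turn, 3, 1, 1 and 8 members passed it, where 20.8%, 16.3%, 10.5% and 31.5% of all genes did. In the same fits 4, 6, 4 and 8 members were called at day +60 (18.6%, 18.6%, 13.0% and 21.1% of all genes), and 1, 2, 1 and 3 at day +15 (6.69%, 7.17%, 2.96% and 7.84%). At day +60 against day -30, 9 of 9 were higher, where 29.3% of all genes were called and 12.6% were higher. At day +15 the background was 17.9% called and 10.2% higher. The members' median difference was 1.01 at day +60 and 1.18 at day +15, against -0.12 and -0.01 for all genes tested. Groups of 4 did not overlap for 8 members at day +60 and for 8 at day +15, where 36.2% and 32.0% of all genes did not overlap. All day comparisons with day -30 share its 4 arrays.

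**Figure D1:**
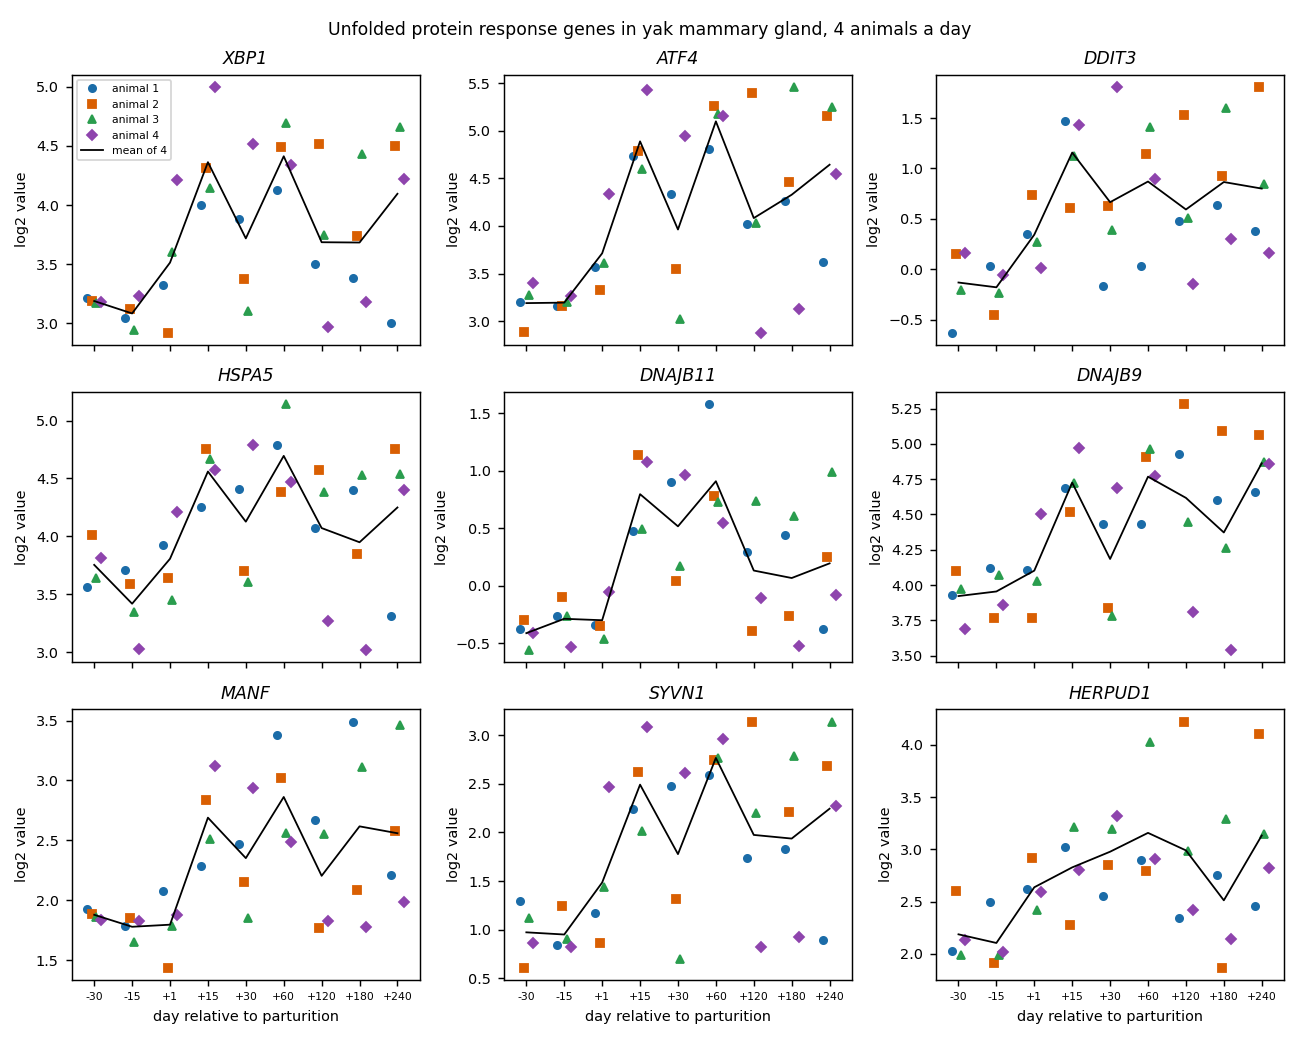
Log2 value of each gene on each of the 36 arrays (points, shaped and coloured by animal) against day relative to parturition, with the mean of the 4 animals as a line. Every gene has its lowest mean at day -30 or -15, 7 have their highest at day +60, and animal 4 drops back at days +120 and +180.

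XBP1, the transcription factor that drives chaperone and degradation genes once IRE1 has spliced its mRNA, had 3.21, 3.19, 3.17 and 3.18 in animals 1 to 4 at day -30. It had 4.00, 4.31, 4.14 and 5.0 at day +15, and 4.13, 4.49, 4.69 and 4.34 at day +60. The day -30 values lay close together and below every value of both later days. The difference was 1.18 ± 0.34 at day +15 (limma adjusted p = 0.0193) and 1.23 ± 0.34 at day +60 (limma adjusted p = 0.00857), a 2.34-fold change at day +60. At day +240 animal 1 was at 3.00, below every day -30 value, while the other animals were at 4.22 to 4.66, and the difference of 0.91 did not pass.

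ATF4, translated when PERK or another kinase phosphorylates eIF2alpha, had the largest difference of the 9 at both days. Its values were 3.20, 2.89, 3.27 and 3.40 at day -30, then 4.73, 4.79, 4.60 and 5.43 at day +15, and 4.81, 5.26, 5.17 and 5.15 at day +60. No value of the later days came within 1 log2 unit of the highest at day -30. The difference was 1.91 ± 0.43 at day +60, or 3.75-fold (limma adjusted p = 0.00213). It was also called at day +240, at 1.45 ± 0.43 (limma adjusted p = 0.0265), with 4 of 4 animals higher.

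DDIT3, which encodes the CHOP factor associated with cell death under lasting stress, had -0.63, 0.15, -0.21 and 0.16 at day -30. It had 1.47, 0.61, 1.12 and 1.43 at day +15, and 0.03, 1.14, 1.41 and 0.90 at day +60. Day +15 lay above day -30 in every animal without overlap, whereas animal 1 at day +60 fell within the day -30 range. Its difference was 1.29 ± 0.38 at day +15 (limma adjusted p = 0.0202) and 1.01 ± 0.38 at day +60 (limma adjusted p = 0.0434). It was the only one of the 9 with its highest mean at day +15.

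HSPA5, which encodes the main ER chaperone BiP, had 3.56, 4.01, 3.64 and 3.81 at day -30, 4.25, 4.75, 4.67 and 4.57 at day +15, and 4.79, 4.38, 5.14 and 4.47 at day +60. Both later days lay above day -30 without overlap. The difference was 0.94 ± 0.32 at day +60 (limma adjusted p = 0.0293), and 0.80 ± 0.32 at day +15 missed the threshold (limma adjusted p = 0.0773). In a fit over all probes, another HSPA5 probe was called at day +15, at 0.78 (limma adjusted p = 0.0421). Probes at 0.97 and 0.82 were not (limma adjusted p = 0.0916 and 0.484). DNAJB11, a co-chaperone of BiP, had -0.38, -0.30, -0.56 and -0.41 at day -30, 0.48, 1.14, 0.49 and 1.08 at day +15, and 1.58, 0.78, 0.73 and 0.55 at day +60. All later values were above 0 and all day -30 values below it. It had the smallest adjusted p of the 9, 0.00148 by limma at day +60 for a difference of 1.32 ± 0.29, and it was the only member called at day +30, at 0.93 ± 0.29 (limma adjusted p = 0.0485), where 6.38% of all genes were called and 2.12% were higher.

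DNAJB9, another co-chaperone of BiP that takes part in turning IRE1 off, had 3.93, 4.10, 3.97 and 3.69 at day -30, 4.69, 4.52, 4.72 and 4.97 at day +15, 4.43, 4.91, 4.96 and 4.77 at day +60, and 4.66, 5.06, 4.87 and 4.86 at day +240. All 3 later days lay above day -30. Its difference was 0.81 ± 0.27 at day +15, 0.84 ± 0.27 at day +60 and 0.94 ± 0.27 at day +240 (limma adjusted p = 0.0360, 0.0193 and 0.0206), and its highest mean fell at day +240, where 13.9% of all genes were called and 6.86% were higher. MANF, an ER-resident protein that is secreted under stress, had 1.93, 1.89, 1.86 and 1.84 at day -30, 2.29, 2.84, 2.51 and 3.12 at day +15, and 3.38, 3.02, 2.56 and 2.49 at day +60. The later values did not overlap those of day -30. The difference was 0.98 ± 0.32 at day +60 (limma adjusted p = 0.0214), and 0.81 ± 0.32 at day +15 was not called (limma adjusted p = 0.0715).

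SYVN1, the ubiquitin ligase (Hrd1) at the centre of ER-associated degradation, had 1.30, 0.61, 1.12 and 0.86 at day -30, 2.24, 2.62, 2.02 and 3.09 at day +15, and 2.59, 2.75, 2.77 and 2.96 at day +60. Every later value exceeded every day -30 value. The difference was 1.80 ± 0.46 at day +60, or 3.47-fold (limma adjusted p = 0.00554). HERPUD1, a membrane protein that joins the same ligase complex, had 2.03, 2.60, 1.99 and 2.13 at day -30, 3.02, 2.28, 3.21 and 2.80 at day +15, and 2.90, 2.79, 4.03 and 2.91 at day +60. At day +15 animal 2 lay inside the day -30 range, and at day +60 animal 3 stood above the other 3. HERPUD1 was called at day +60 only (0.97 ± 0.36, limma adjusted p = 0.0401) and was the member that did not pass the F test (limma adjusted p = 0.0756). That F test result depended on the probe. In the fit over all probes, another HERPUD1 probe passed the F test (limma adjusted p = 0.00873), and a further probe did not (limma adjusted p = 0.189).

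**Figure D2:**
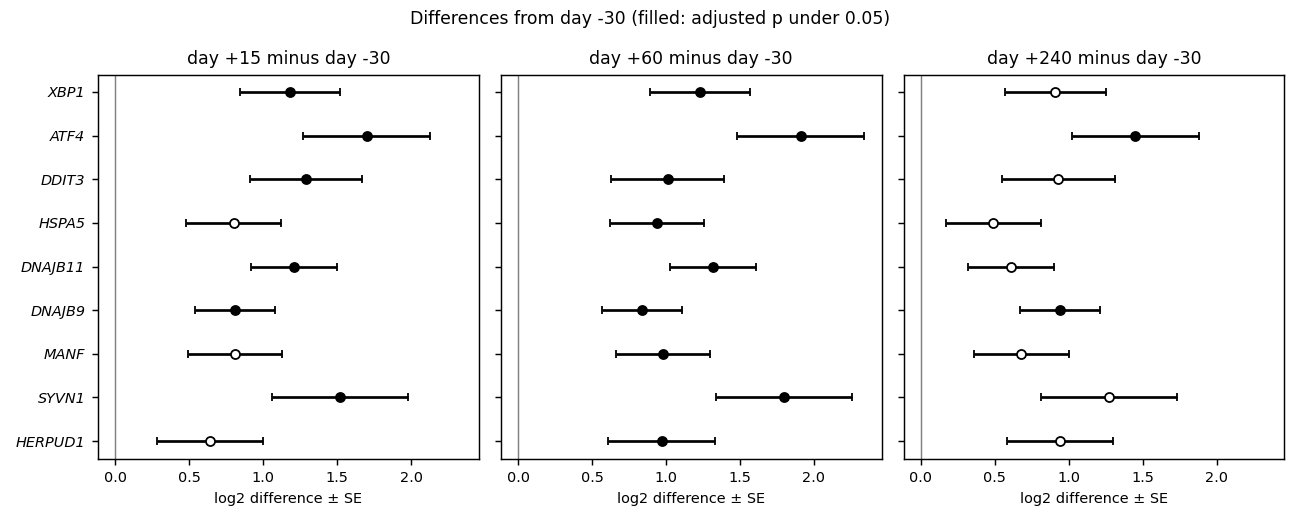
Log2 difference from day -30 with its SE for the 9 genes at days +15, +60 and +240, filled where the limma adjusted p was under 0.05. All points lie above 0, and 6, 9 and 2 are filled at the 3 days.

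In animal 4 alone, whose days are the same in both records, all 9 genes were higher at both days. Its day +15 differences from day -30 were 1.82 for XBP1, 2.03 for ATF4, 1.27 for DDIT3, 0.76 for HSPA5, 1.49 for DNAJB11, 1.28 for DNAJB9, 1.28 for MANF, 2.23 for SYVN1 and 0.67 for HERPUD1. In the same order its day +60 differences were 1.17, 1.75, 0.74, 0.66, 0.97, 1.08, 0.65, 2.10 and 0.78. These are single differences without a test. The 75th percentile of the processed signal of animal 4 was 5725 at day -30, 1029 at day +15 and 1448 at day +60. The part of brightness in these differences was not tested, and the share of all genes higher in animal 4 was not counted.

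The rest of the course was less even. No member was called at day -15, +1, +120 or +180, where 0.00497%, 6.24%, 3.76% and 17.5% of all genes were called, and 0, 0, 4 and 4 members had an unadjusted p under 0.05. At that level stood 1.03%, 21.2%, 19.0% and 32.4% of all genes, so that the share of members at day +180 was near that of the table. No member was called lower in any of the 15 comparisons. Between neighbouring days no member was called, for day +1 against -15 (1.79% of all genes), day +15 against +1 (0.318%), day +30 against +15 (0.0149%), day +60 against +30 (0.880%), day +120 against +60 (0.890%), day +180 against +120 (0.338%) and day +240 against +180 (0.801%). In this order, 0, 8, 1, 4, 4, 0 and 0 members had an unadjusted p under 0.05, where 15.5%, 20.3%, 7.21%, 16.5%, 18.8%, 15.3% and 13.5% of all genes did. The step at day +15 against +1 came closest, with 8 of 9 at an unadjusted p under 0.05 and a lowest limma adjusted p of 0.0759. The order of neighbouring day means is therefore a description: 7 members had their highest mean at day +60, and all had their lowest at day -30 or -15.

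The 9 genes' mean spanned 1.19 to 1.40 between the animals at days +30, +120, +180 and +240, against 0.54 at day +1, 0.48 at day +15 and 0.32 at day +60. At day +30 the mean of the 9 genes was 2.81, 2.38, 2.20 and 3.40 in animals 1 to 4, and at day +240 it was 2.24, 3.43, 3.44 and 2.80, against 2.02, 2.13, 2.03 and 2.07 at day -30. Animal 4 was at 1.97 at day +120 and 1.94 at day +180, below its own 2.07 at day -30, on the 2 arrays lowest in milk protein mRNA, where all 7 milk protein probes were still well above background. On those arrays the 9 plasma and B cell genes averaged -0.14 and 0.11, against -1.20 ± 0.19 (SD, n = 4) at day -30. The 9 T and NK cell genes averaged 0.89 and 0.84, against 0.07 ± 0.18 at day -30. The 9 luminal genes averaged 2.40 and 2.49, against 2.88 ± 0.15 at day -30 and 2.68 in animal 4 at that day. The 8 myoepithelial genes averaged 2.42 and 2.34, against 2.64 ± 0.25 and 2.35. Fibroblast genes averaged 3.65 and 3.79, against 3.06 ± 0.20 and 2.86. Over the 4 animals, 3 of 7 milk protein, 3 of 7 neutrophil, 3 of 8 myoepithelial, 2 of 9 luminal, 2 of 7 endothelial and 1 of 6 adipocyte genes were higher at day +60 than at day -30. Lower were 5 of 9 T and NK cell genes and 1 of 9 plasma and B cell genes, and none of 7 macrophage or 7 fibroblast genes was called either way. Of all genes, 12.6% were called higher and 29.3% in either direction at day +60. In lists this short, the adipocyte, luminal and plasma and B cell counts cannot be told from these shares. The part of cell makeup in the differences was not tested. In bulk tissue, fewer secretory cells and less RNA per cell cannot be told apart. Without these 2 arrays, 8 members were called higher at day +15, 9 at day +60, 3 at day +120, 5 at day +180 and 4 at day +240. The share of all genes called was also larger in that fit, at 23.3%, 34.1%, 13.3%, 27.7% and 19.7%.

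On each of the 7 days after calving, the array with the lowest mean of the 9 genes was also the lowest in milk protein mRNA, and on 6 of the 7 it was the brightest array of its slide. Brightness moved with day as well. The 75th percentile was 4854 to 5752 at day -30, and every array of days +15 and +60 was dimmer: 2512, 1339, 1278 and 1448 at day +60, and 2114, 1779, 1996 and 1029 at day +15. With the log2 of that percentile as a covariate, no member passed at any day or in the F test by limma (1 had an unadjusted p under 0.05 in the F test and 1 at day +60), while 40.3% of all genes passed the F test and 13.8% were called at day +60. Most of these day +60 calls were lower, so the share of all genes called higher was far below 13.8%. Against so small a share, 0 higher calls among 9 members cannot be told from the table at that day. The day +60 differences in that fit were 0.89 for DNAJB11, 0.49 for MANF, 0.43 for HERPUD1, 0.25 for ATF4 and between -0.05 and 0.20 for the other 5. With quantile normalization, 4 members passed the F test and 3 were called at day +60, where 37.7% and 21.8% of all genes did, so that the members' share in the F test was near that of the table. The part of milk protein mRNA and of brightness in the differences was not tested apart from day.

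**Figure D3:**
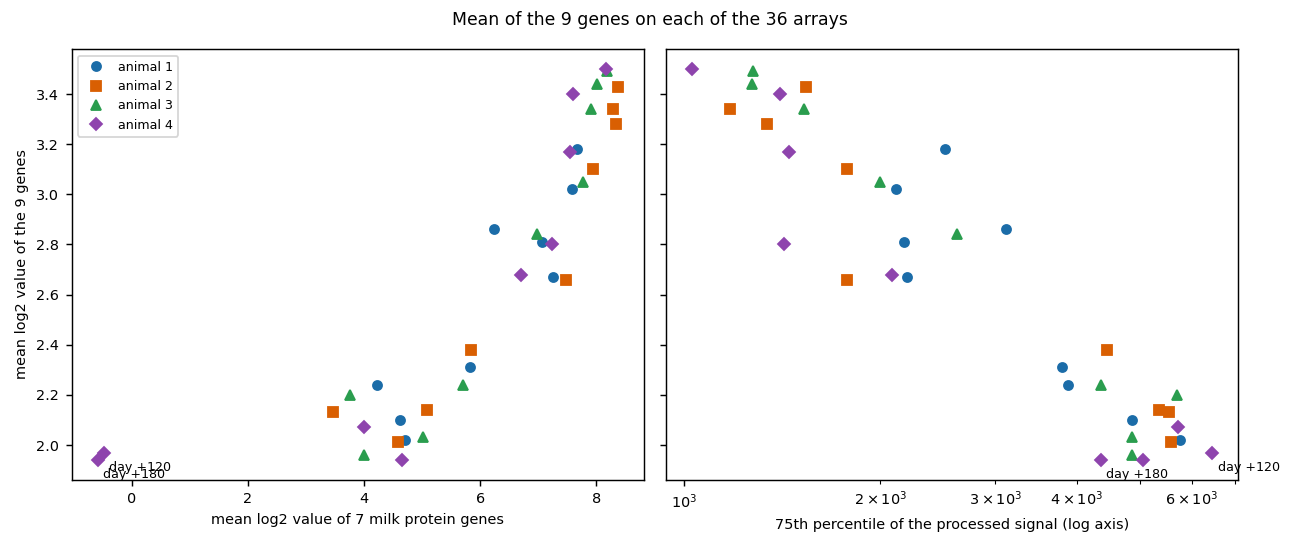
Mean log2 value of the 9 genes on each of the 36 arrays against the mean of 7 milk protein genes (left) and against the 75th percentile of the processed signal on a log axis (right), by animal. Arrays with more milk protein signal and lower brightness have higher values. The 2 marked arrays of animal 4, at days +120 and +180, are low in the 9 genes and in milk protein. Their 75th percentiles are 6450 and 4357.

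Other probes of the same genes were read in a fit over all 34997 probes. Of the 22 probes of the 9 genes in the table, 19 were called higher at day +60 and 18 passed the F test. The shares of all probes in that fit were not counted. By gene, in the main fit, 12.6% were higher at day +60 and 42.3% passed the F test. Probes of a gene are not independent, and those of DNAJB11 overlap in position. The 3 probes of ATF4 had day +60 differences of 1.91, 2.03 and 1.91, and those of XBP1 had 1.23, 1.02 and 1.32. SYVN1 split: the second probe, whose sequence is given above, had a difference of 0.01 ± 0.27 (limma adjusted p = 0.976) and a mean of -2.94 over the 36 arrays, so it was among the dim probes of the table, although well above background on 36 arrays. An HSPA5 probe (0.86 ± 0.78, limma adjusted p = 0.428) and a HERPUD1 probe (1.06 ± 0.52, limma adjusted p = 0.124) were not called. Another HERPUD1 probe, not used for the gene, was called at 1.13 ± 0.25 (limma adjusted p = 0.00164). A pair of probes that the files describe as activating transcription factor 6, under a transcript name and not the symbol, had differences of 0.51 and 0.47 at day +60 and F test adjusted p of 0.0805 and 0.0661 by limma, neither called.

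The wider pathway was read from 4 lists, against the 42.3% of all genes that passed the F test and the 12.6% that were higher at day +60. Of 11 sensors, their activating proteases and related factors listed, 9 were tested. ERN1, which encodes IRE1, was not among them. Of the 9 tested, 6 passed the F test and 4 were called higher at day +60, none lower. CREB3L2 and CREB3L3, relatives of CREB3, differed by -0.74 and -0.68 without being called (limma adjusted p = 0.0535 and 0.0671). EIF2AK3, which encodes PERK, averaged 0.06 ± 0.09 at day +60 and -0.70 ± 0.19 at day -30 (SD, n = 4; difference 0.77, limma adjusted p = 0.0108). MBTPS2, a protease that cleaves ATF6, differed by 1.06 (limma adjusted p = 0.00609), and CREB3, an ER-bound factor of the ATF6 kind, by 0.67 (limma adjusted p = 0.0261).

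Of 13 genes of the integrated stress response, the branch downstream of eIF2alpha, 6 passed the F test, a share near that of all genes. At day +60, 5 were higher and 2 lower. TRIB3, a pseudokinase induced by ATF4 and CHOP, had the largest difference, 3.48 ± 0.71 (limma adjusted p = 0.000846), with means of -1.17 ± 0.58 at day +60 and -4.66 ± 0.61 at day -30 (SD, n = 4). NUPR1, a stress-induced chromatin protein, was higher by 2.11 ± 0.45 (limma adjusted p = 0.00121). SESN2, an antioxidant and growth-limiting gene that ATF4 induces in other tissues, fell by 1.79 on the log2 scale (limma adjusted p = 0.00238). TRIB3 at day -30 and SESN2 at day +60, with a mean of -3.14, lay below the mean of -2.94 of the dim SYVN1 probe.

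Of 24 ER chaperones and folding enzymes, 15 passed the F test, and 14 were higher at day +60 and 8 at day +15, with none lower. DNAJC3, a co-chaperone that also inhibits PERK, was higher by 2.11 ± 0.45 at day +60 (limma adjusted p = 0.00119). ERP44, which retains secretory proteins in the early pathway, was higher by 1.22 ± 0.24 (limma adjusted p = 0.000716), and ERO1L, the oxidase that renews disulfide formation, by 0.69 ± 0.23 (limma adjusted p = 0.0246). Of 23 genes of ER-associated degradation, 14 passed the F test, and 15 were higher at day +60 and 1 lower. The lower gene was DERL3, a derlin, at -0.71 ± 0.27 (limma adjusted p = 0.0457). EDEM3, which trims mannose from misfolded glycoproteins, was higher by 1.51 ± 0.30 (limma adjusted p = 0.000723), DERL1, a part of the exit channel, by 1.19 ± 0.25 (limma adjusted p = 0.00105), and VIMP, a selenoprotein that binds derlins, by 1.30 ± 0.33 (limma adjusted p = 0.00488). Median day +60 differences were 0.38, 0.93, 0.78 and 0.86 for the 4 lists in this order. With brightness as a covariate, no gene of the 4 lists was called higher at day +15 or +60. In that fit 3.51% and 13.8% of all genes were called at these days, most of them lower. Few genes of the table were called higher either, so this count cannot tell the lists from the table.

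**Figure D4:**
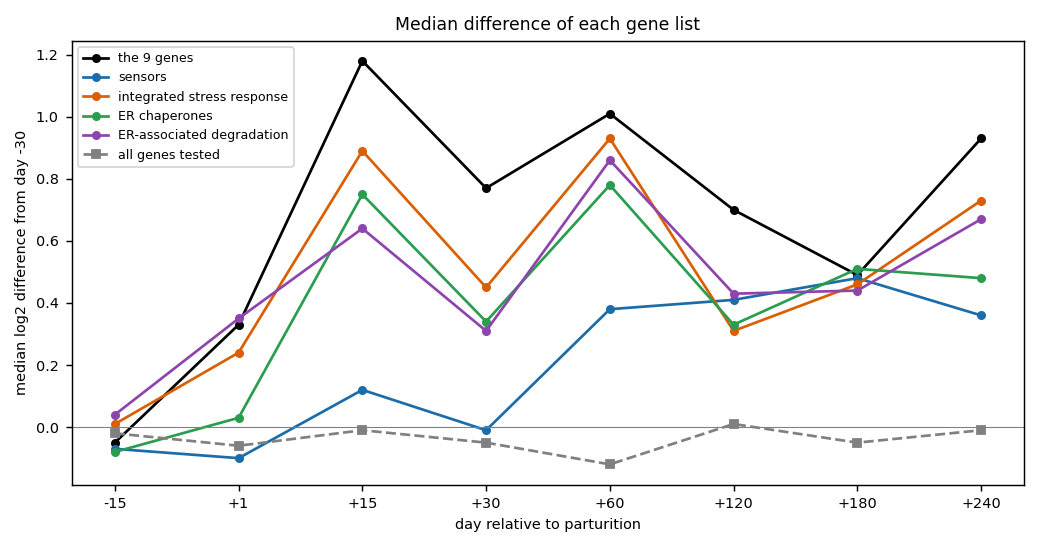
Median log2 difference from day -30 of the 9 genes and the 4 pathway lists by day, with all 20108 genes tested as the dashed line. At day +60 the lists lie between 0.38 and 1.01, and all genes at -0.12.

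Among themselves, the 9 genes correlated over the 36 arrays with Pearson's r of 0.34 (MANF and HERPUD1) to 0.97 (ATF4 and SYVN1). XBP1 and SYVN1 stood at 0.95, and DNAJB11 and MANF at 0.86. Arrays share animals and slides, so these are descriptions. The genes outside the set whose values followed the mean of the 9 most closely were LDHB, SRP54, ALG5, EIF1 and YWHAB, each with r = 0.96 over 36 arrays. SRP54 encodes a subunit of the particle that brings nascent secretory proteins to the ER, and ALG5 an enzyme of N-glycan precursor synthesis. An r above 0.8 was common, with 1417 genes, or 7.05% of those tested.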

How the data were processed

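The authors scanned 36 single-colour arrays with Feature Extraction 10.7.3.1, per the file headers, giving processed signals as intensity and marks of another kind (0 or 1) for spots well above background. The authors deposited a table of log2 values for 34997 of 43653 probes, made in GeneSpring 12 and tested in JMP Genomics 7 with a mixed model of day and animal, per the labels' design text. The match of table and scanner values shows that each array's 75th percentile was set to 0 in that log2 table. The members and lists were chosen with earlier results of these data known. Day and animal of each column come from its sample title. Scanner files, paired to columns by equal values, gave brightness, detection marks and normexp values.

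One probe per gene, that with the highest mean, was kept if well above background on 3 of 4 arrays of at least 1 day. Tests used limma 3.58.1 in R 4.3.3 with animal as random block (consensus correlation 0.0531), after a check on simulated data. The simulated arrays held no animal, slide or brightness effect, so that check does not bear on those effects. By the sample titles animal numbers mark the same yak. Deviations from day means correlated at 0.152 within animals and -0.0509 between them. By the table's record each animal also kept 1 position on every slide, so animal and position cannot be told apart in these correlations. Named genes were all members, the 3 smallest F test p of each pathway list, and the 5 most similar genes. ERN1, CREB3L2, CREB3L3 and DERL3 were named besides. The number of arrays limits the precision. No spot was saturated, and side of udder is not recorded per array.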

Additional observations from a re-analysis of the deposited data

Results flagged for a closer look

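HERPUD1 at day +60 stood apart in animal 3, at 4.03 against 2.79 to 2.91 in the other animals, a gap of 0.90 of the group's range. It was the 1 group of 81 (9 genes at 9 days) in which a single array lay past Dixon's critical value, a rule by which chance marks about 1 in 20 groups.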

How the results depend on the processing

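The numbers of members passing moved with the processing, and no cause was tested. With brightness as a covariate, 0 members passed the F test and 0 were called at day +15, +30, +60 or +240. In that fit the shares of all genes were 40.3%, 3.51%, 11.8%, 13.8% and 9.13%, and most calls at these days were lower. The differences that turned there were, at day +15, XBP1 -0.03, DNAJB9 -0.04, SYVN1 -0.14 and HSPA5 -0.14; at day +60, XBP1 -0.03, DNAJB9 -0.04 and HSPA5 -0.05; and at day +240, XBP1 -0.21, ATF4 -0.02, SYVN1 -0.27 and HSPA5 -0.38. With quantile normalization, 4 passed the F test, 3 at day +60 and 0 at day +240. The shares of all genes were 37.7%, 21.8% and 10.8%. DNAJB9 at day +15 (-0.02) and HSPA5 at day +240 (-0.27) turned in that fit. With normexp, 5 passed the F test, 4 at day +60, 1 at day +240 and 0 at day +30. The shares of all genes were 23.1%, 25.2%, 6.06% and 2.87%. With the median of each array at 0, 0 were called at day +30 (5.07% of all genes) and 2 at day +180 (18.7%). With the mean of all probes of a gene, 0 and 1 were called at these days (6.65% and 17.2% of all genes). The members' shares at day +180 were thus near or below those of the table. Without the replicate block, or with the block as a fixed effect, 0 were called at day +30, and the other counts stayed within 1.5 times. In these fits 4.84% and 7.32% of all genes were called at day +30. Leaving out 1 animal at a time, 1 to 8 passed the F test, 1 to 3 were called at day +15, 0 at day +30, 4 to 8 at day +60, 0 to 2 at day +120, 0 to 3 at day +180 and 0 to 3 at day +240. Without animals 1, 2, 3 and 4 in turn, the F test passed 3, 1, 1 and 8. In these fits 0.547% to 2.64% of all genes were called at day +30 and 0.184% to 6.84% at day +120. The range was 6.35% to 17.9% at day +180 and 1.19% to 14.4% at day +240. Without the 2 arrays lowest in milk protein, 3 were called at day +120, 5 at day +180, 4 at day +240 and 1 at day +15 against +1. The shares of all genes in that fit were 13.3%, 27.7%, 19.7% and 1.99%. With only the 8 arrays of both days, 6 were called at day +15 against +1, where 15.8% of all genes were called. The day of the highest mean of a gene moved in 10 cases that left out an animal or those 2 arrays and stayed in 35. Scaling moved the median of all genes at day +60, which was 0.04 with medians at 0 and 0.36 with normexp, against -0.12, and the share of calls that were higher was 58.3%, 83.8% and 43.0%. Slide and day cannot be told apart.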
